A study of Mus musculus with 15 samples.

Results

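Common myeloid progenitors (CMP) and granulocyte-monocyte progenitors (GMP) were sorted from bone marrow of Trappc1 knockout mice, and the step from CMP to GMP was read as the difference in RNA between the 2 sorts. Members were the libraries titled as knockout CMP numbers 1 to 4 and knockout GMP numbers 1, 3 and 4, which are 7 of the 15 libraries of the series, and every gene that passed the filter on low counts was described (15181 of 23337 gene symbols). The other 8 libraries are 4 CMP and 4 GMP libraries of the genotype labelled Trappc1WT, and they serve here as the wild-type step. The labels give both sorts as lineage-negative, Sca1-negative, CD117-positive and CD34-positive cells that were low (CMP) or high (GMP) for CD16/32, and all groups carry the treatment label none. Below, KO CMP and KO GMP stand for the libraries labelled Trappc1KO, and WT CMP and WT GMP for those labelled Trappc1WT. The labels give no age, no Cre driver, no deleted exon and no statement that libraries came from separate animals or pools, so each p-value rests on the spread among these libraries alone, and that spread may be technical. A KO GMP library numbered 2 was not analysed here. Because KO GMP 1 lay away from KO GMP 3 and 4, each result is given with and without it.

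CMP can form granulocytes, monocytes, erythrocytes and megakaryocytes, whereas GMP have lost most of the erythroid and megakaryocytic potential and have begun to make the enzymes that are stored in primary (azurophil) granules. The factors PU.1 and C/EBP alpha drive the granulocyte-monocyte programme, and GATA1, GATA2 and their partners drive the erythroid, megakaryocytic and mast cell programmes. The product of Trappc1 is a core component of TRAPP, a complex that activates Rab proteins and helps to tether vesicles on the way from the endoplasmic reticulum (ER) to the Golgi, a route that granule proteins pass.

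Totals in the 7 knockout libraries were 68.2 to 120.3 M count units, or 17.0 to 30.1 M fragments if 1 fragment is about 4 units. In a principal component analysis of these libraries, the first component (65.1% of the variance) placed KO CMP 1 to 4 at −51.1, −52, −18.1 and −15.8, KO GMP 1 at 2.8, and KO GMP 3 and 4 at 66.3 and 67.9. The second component (19.2%) placed KO CMP 1 and 2 and KO GMP 1 between 11.9 and 32.3 and KO CMP 3 and 4 at −32.6 and −40.4, with KO GMP 3 and 4 at 4.8 and 1.8. KO GMP 1 was thus nearest to the CMP libraries on the first component and on the side of KO CMP 1 and 2 on the second. The same 3 libraries stood apart in the sex-linked gene Xist, which silences an X chromosome in female cells and measured 109, 204, 0.0944 and 0.0416 CPM (counts scaled to library size) in KO CMP 1 to 4 and 123, 0.232 and 0.305 CPM in KO GMP 1, 3 and 4. The Y-linked genes Uty, Kdm5d and Eif2s3y were present in all 7 libraries (14 to 75.7 CPM over the 3 genes). KO CMP 1 and 2 and KO GMP 1 were likewise high in the stromal genes Cxcl12 (91, 127, 3.11 and 2.31 CPM in KO CMP and 48.7, 0.99 and 1.13 CPM in KO GMP) and Col1a2 (24, 34.4, 1.59 and 1.3 against 9.62, 0 and 0.174 CPM). The part of this difference in the results below was not tested, and a fit without all 3 libraries is given beside the counts of changed genes.

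**Figure D1:**
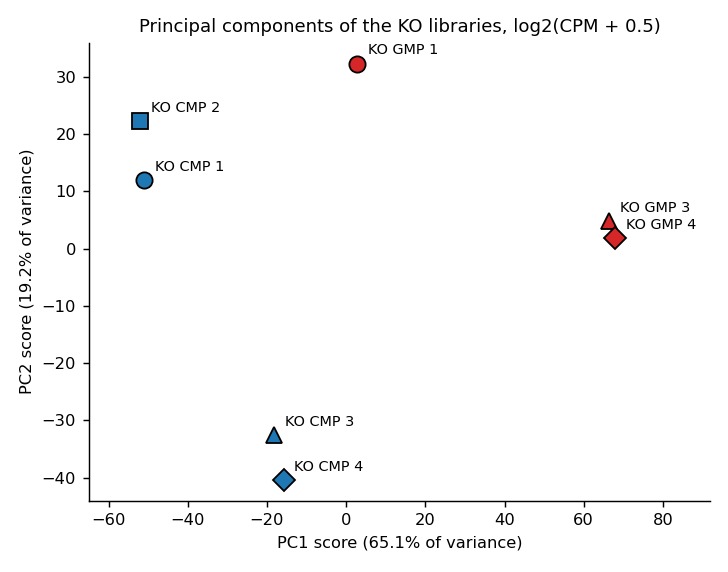
The first and second principal components of log2 CPM in the 7 knockout libraries, with KO CMP in blue and KO GMP in red and the library number as the symbol. The first component (65.1% of the variance) separates KO GMP 3 and 4, at 66.3 and 67.9, from the 4 KO CMP libraries, and KO GMP 1 lies at 2.8.

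Trappc1, the targeted gene, lies on the plus strand of chromosome 11 from 69323980 to 69325793 in GRCm38 (ENSMUSG00000049299.14). It measured 5.56, 3.83, 11.7 and 13.4 CPM in KO CMP 1 to 4 and 6.09, 24.1 and 25.2 CPM in KO GMP 1, 3 and 4, against 18.4, 26.2, 18.8 and 25.2 CPM in WT CMP and 41.3, 37, 30.9 and 33.3 CPM in WT GMP. KO GMP 3 and 4 were above all KO CMP libraries, and KO GMP 1 lay among them. The fitted log2 change over the knockout step was 1.10 ± 0.44 (adjusted p = 0.0912) with all libraries, which did not pass the threshold of 0.05, and 1.51 ± 0.36 (adjusted p = 0.00586) without KO GMP 1. DESeq2 gave 1.09 with an adjusted p of 0.0399 over all libraries. An exact two-sided permutation test of the mean log2 CPM over the 7 knockout libraries (35 arrangements) gave a difference of 0.98 and p = 0.2857, where the smallest p that this test allows is 0.0571. KO GMP 3 and 4, the knockout libraries with the highest Trappc1, were within the range of WT CMP and below every WT GMP library. The labels do not state the deleted part of the gene, so the level of the whole transcript does not show how much intact mRNA remained.

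The genes of the sort gate were used to choose the cells and are given as a check of the labels, not as a result. Fcgr3, which encodes CD16, measured 12.9, 18.8, 31.1 and 28.1 CPM in KO CMP and 125, 311 and 295 CPM in KO GMP, with no overlap and with KO GMP 1 between the groups. Fcgr2b, which encodes CD32, measured 35.2, 36.7, 47.7 and 45.8 CPM in KO CMP and 105, 130 and 122 CPM in KO GMP. Cd34 measured 747, 707, 740 and 704 CPM in KO CMP and 547, 229 and 214 CPM in KO GMP, so that KO GMP 1 was nearer to KO CMP than to the other GMP libraries. Ly6a, which encodes Sca1, measured 19.9, 32, 40.6 and 45.2 CPM in KO CMP and 6.26, 7.85 and 8.49 CPM in KO GMP, and Kit, which encodes CD117, measured 419, 409, 359 and 331 against 419, 300 and 288 CPM. All 7 libraries thus followed the CD16/32 gate in direction, with Fcgr3 lower in KO GMP 1 than in KO GMP 3 and 4, and all 7 held RNA of Cd34 and Kit, for which both sorts were positive. Fcgr4, a receptor that the gate did not name, rose by 1.94 ± 0.41 (adjusted p = 0.0043) on the log2 scale.

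Over the knockout step, primary granule, eosinophil, basophil, NADPH oxidase and ER chaperone genes rose, and stem cell, megakaryocytic and erythroid genes fell. Dendritic genes fell when KO GMP 1 was left out (12 of 15), against 2 of 15 with it. With all 7 knockout libraries, 1631 genes were higher in KO GMP (10.7% of those tested) and 1594 were lower (10.5%), 21.2% in all. Without KO GMP 1, 2035 genes were higher (13.4%) and 2378 were lower (15.7%), 29.1% in all. The same genes made up most of both sets: 1521 of the higher genes were called both ways (93.3% of the first set and 74.7% of the second) and 1471 of the lower genes (92.3% and 61.9%). No gene was called in opposite directions, and 541 higher and 940 lower genes changed over 2-fold with all libraries, against 667 and 1568 without KO GMP 1. The median log2 change over all tested genes was −0.02 with all libraries and −0.04 without KO GMP 1. Every KO GMP library was above every KO CMP library for 2028 genes (13.4%) and below every one for 2194 genes (14.5%).

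These counts leaned on KO GMP 3 and 4. Without KO GMP 3 the step had 981 higher and 707 lower genes, and without KO GMP 4 it had 1034 and 751. Leaving out KO CMP 1, KO CMP 2 and KO GMP 1 together gave 1804 higher and 1967 lower genes. In a bulk sample, fewer cells of a type and less RNA per cell cannot be told apart, and this holds for each gene group below. Values after ± are approximate standard errors, taken as the size of the log2 change divided by the square root of the F statistic of its test. Adjusted p-values are Benjamini-Hochberg values of edgeR's quasi-likelihood test over all tested genes. Libraries are always listed in the order KO CMP 1 to 4 and KO GMP 1, 3 and 4.

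The place of KO GMP 1 along the step was measured with genes chosen by the wild-type step. The fit behind that choice held all 15 libraries, so the knockout libraries had a part in its filter, scaling and shared estimate of spread. For the 285 genes that rose and the 1364 that fell over 2-fold from WT CMP to WT GMP, each library was given a position per gene, where 0 is the mean of WT CMP and 1 is the mean of WT GMP. Median positions of KO GMP 3 and 4 were 1.056 and 1.054 on the genes that rose and 0.989 and 1.0 on those that fell. KO GMP 1 had medians of 0.333 (quartiles 0.066 and 0.618) and 0.416 (quartiles 0.171 and 0.702). KO GMP 3 and 4 therefore stood where WT GMP stood, and KO GMP 1 stood less than midway. KO CMP 1 to 4 had medians of −0.597, −0.422, −0.304 and −0.307 on the genes that rose, all below the WT CMP libraries, whose medians were 0.262, 0.249, −0.272 and −0.21. On the genes that fell, the KO CMP medians were −0.212, −0.241, −0.028 and −0.014.

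**Figure D2:**
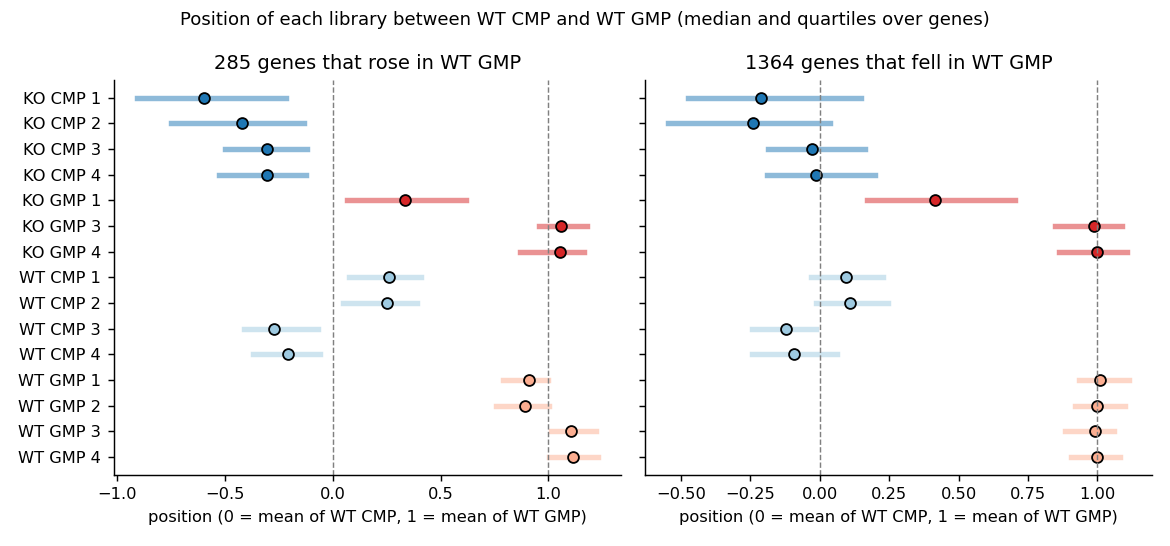
Position of each of the 15 libraries between WT CMP (0) and WT GMP (1), as the median (point) and quartiles (bar) over the 285 genes that rose and the 1364 genes that fell over 2-fold in the wild-type step. KO GMP 3 and 4 lie near 1 in both panels, and KO GMP 1 lies at 0.333 and 0.416.

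Read against the knockout libraries themselves, KO GMP 1 was intermediate for most genes. Of the 2035 genes called higher without it, it lay between the mean of KO CMP and the mean of KO GMP 3 and 4 for 79.1%, at or below the KO CMP mean for 12.9% and past KO GMP 3 and 4 for 8.0%. Of the 2378 genes called lower, the shares were 78.3%, 14.3% and 7.4%. Within number 1, GMP against CMP, the same direction as in the fit was seen for 91.4% of the higher and 89.9% of the lower genes, with median log2 differences of 0.40 and −0.53. Within numbers 3 and 4 the medians were 0.61 and 0.62 for the higher genes and −0.94 and −0.95 for the lower. These genes were chosen with KO GMP 3 and 4, and KO CMP 1 to 4 served in the choice as well as in each of these differences, so all of these values are a description.

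A fit with a separate step for numbers 1 and 2 and for numbers 3 and 4 compared these directly. Numbers 3 and 4 had 2715 higher and 2905 lower genes (17.9% and 19.1%, 37% in all), and numbers 1 and 2 had 1278 and 1056 (8.42% and 6.96%, 15.4% in all). The steps differed for 1201 genes (7.91%), of which 697 (4.59%) had the higher log2 change in numbers 1 and 2 and 504 (3.32%) the higher change in numbers 3 and 4. Numbers 1 and 2 hold a single KO GMP library, which that fit assumes to vary like the others, and the labels do not say what the numbers stand for.

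Primary granule genes rose together. All 15 listed genes of primary granules and the GMP stage were called higher with and without KO GMP 1, with a median log2 change of 1.98 and 2.29. The promoters of 3 genes of this group are shown because the genes moved together and because each window holds a copy of a PU.1-type motif. The windows run from 250 bases before to 50 bases after the annotated start (RefSeq, GRCm38.p6, plus strand for all 3, 5′ to 3′), and capitals mark the letters GAGGAAGT.
Prtn3, chr10:79879417-79879716: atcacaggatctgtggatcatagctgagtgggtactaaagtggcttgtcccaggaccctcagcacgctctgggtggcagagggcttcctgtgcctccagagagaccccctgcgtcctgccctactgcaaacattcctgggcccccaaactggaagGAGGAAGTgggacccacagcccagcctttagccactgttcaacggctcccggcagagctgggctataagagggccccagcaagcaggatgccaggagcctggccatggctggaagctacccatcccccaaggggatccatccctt
Elane, chr10:79886062-79886361: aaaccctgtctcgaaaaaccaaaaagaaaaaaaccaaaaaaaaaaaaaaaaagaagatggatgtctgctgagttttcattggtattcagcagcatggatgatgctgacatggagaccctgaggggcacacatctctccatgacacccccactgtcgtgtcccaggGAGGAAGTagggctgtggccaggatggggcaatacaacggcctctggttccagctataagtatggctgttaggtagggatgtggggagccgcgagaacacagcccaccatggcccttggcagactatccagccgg
Mpo, chr11:87793534-87793833: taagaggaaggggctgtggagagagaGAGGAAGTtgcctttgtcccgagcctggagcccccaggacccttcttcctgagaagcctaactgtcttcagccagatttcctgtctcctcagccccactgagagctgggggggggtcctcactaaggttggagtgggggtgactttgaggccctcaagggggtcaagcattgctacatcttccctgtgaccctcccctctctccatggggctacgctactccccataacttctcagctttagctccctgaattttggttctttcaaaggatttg

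The motif GAGGAAGT, read on both strands, was in 5.83% of 480 RefSeq promoters of genes that rose at least 2-fold in both fits, in 2.59% of 811 promoters of genes that fell as much, and in 3.18% of 13412 promoters of all tested genes. The C/EBP-type motif TTNCNNAA was in 42.7%, 33.5% and 32.3%, and the GATA motif AGATAA in 8.12%, 10.6% and 7.04%. Of 514 such higher genes, 364 matched the promoter table by symbol, and of 886 lower genes 611 did. A match describes these letters in this window and shows neither binding nor a cause, and copies of the PU.1-type and C/EBP-type motifs can share bases.

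Elane, Prtn3 and Mpo were taken from the primary granule list after their values were seen. Elane, which encodes neutrophil elastase, measured 228, 335, 992 and 1100 CPM in KO CMP and 2500, 7360 and 7790 CPM in KO GMP. All GMP libraries were above all CMP libraries, KO GMP 1 was the lowest GMP library, and KO CMP 1 and 2 were below KO CMP 3 and 4. Its log2 change was 3.14 ± 0.59 (adjusted p = 0.00225) with all libraries and 3.51 ± 0.59 (adjusted p = 0.000553) without KO GMP 1. Prtn3, which encodes proteinase 3 and lies beside Elane on chromosome 10, measured 690, 664, 1560 and 1680 CPM in KO CMP and 2440, 6120 and 6280 CPM in KO GMP and rose by 2.11 ± 0.39 (adjusted p = 0.00202). Mpo, which encodes myeloperoxidase, measured 3050, 3590, 8020 and 8130 CPM in KO CMP and 14800, 26300 and 26200 CPM in KO GMP and rose by 1.98 ± 0.34 (adjusted p = 0.0013). For Prtn3 and Mpo, too, no GMP library was below a CMP library, and KO GMP 1 was the lowest of the GMP libraries.

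Other members of the group showed the same order of libraries. Gstm1, a glutathione transferase, measured 86.7, 84.5, 148 and 140 CPM in KO CMP and 463, 1060 and 1060 CPM in KO GMP and rose by 2.90 ± 0.35 (adjusted p = 0.000341). Ms4a3, a membrane protein of granulocyte-monocyte progenitors, measured 103, 108, 129 and 141 against 433, 894 and 905 CPM and rose by 2.63 ± 0.40 (adjusted p = 0.000742). Prss57, a serine protease of the same granules, measured 44.1, 42.2, 70.2 and 73.9 against 161, 288 and 303 CPM and rose by 2.12 ± 0.33 (adjusted p = 0.000899). No library of 1 group reached into the other for these 3 genes. Summed over the 15 genes, GMP was 3.65, 3.53 and 3.45 times CMP within numbers 1, 3 and 4, so number 1 did not lag in this sum although its GMP level was lower, since KO CMP 1 was also lower.

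**Figure D3:**
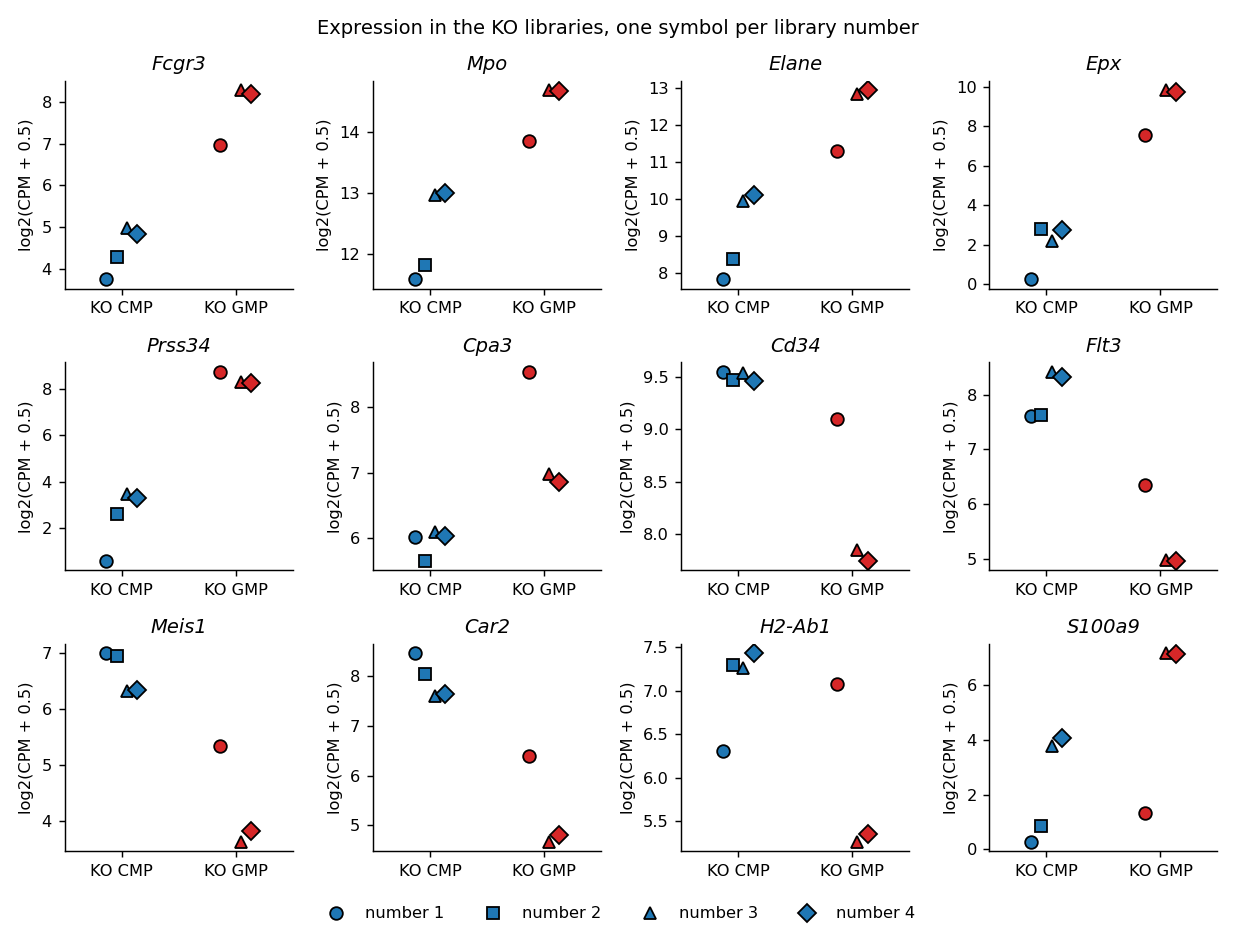
Expression as log2(CPM + 0.5) of 12 genes in the 4 KO CMP (blue) and 3 KO GMP (red) libraries, with the library number as the symbol. Elane and Mpo have KO GMP 1 below KO GMP 3 and 4, Prss34 and Cpa3 have it above them, and for S100a9 and H2-Ab1 it lies among the KO CMP libraries.

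Genes of later neutrophil stages were also higher, and here KO GMP 1 stayed at the CMP level for several. Of 20 listed genes, 11 rose and 1 fell with all libraries, and 13 rose and 1 fell without KO GMP 1, with medians of 2.54 and 2.98. Without KO GMP 3, or without KO GMP 4, 7 rose. Lcn2, which encodes the siderophore-binding protein lipocalin 2, measured 10.3, 8.82, 9.76 and 11.4 CPM in KO CMP and 50.3, 53 and 50.9 CPM in KO GMP, with KO GMP 1 at the level of the others, and rose by 2.35 ± 0.27 (adjusted p = 0.000231). Anxa1 (annexin A1) measured 96.1, 85.4, 116 and 124 against 223, 446 and 456 CPM and rose by 1.83 ± 0.26 (adjusted p = 0.000627). Pglyrp1, a peptidoglycan recognition protein of granules, measured 28.4, 24.2, 27.8 and 30.2 against 89.7, 223 and 236 CPM and rose by 2.73 ± 0.46 (adjusted p = 0.00125). These 3 genes did not overlap between the groups.

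S100a9, Ngp and Camp behaved otherwise. They were named by the rule for genes whose KO GMP 1 lay farthest toward CMP, so that trait follows from the choice. S100a9, a subunit of calprotectin, measured 0.707, 1.29, 13.4 and 16.4 CPM in KO CMP and 2, 144 and 142 CPM in KO GMP, so that KO GMP 1 lay among the CMP libraries. Its log2 change was 3.59 ± 1.19 (adjusted p = 0.0455) with all libraries and 4.16 ± 1.01 (adjusted p = 0.00676) without KO GMP 1, and with library number as a replicate block the adjusted p was 0.0507. Leaving out KO CMP 1, 2 or 3 or KO GMP 3 or 4 gave adjusted p-values of 0.0665 to 0.135. Ngp measured 0.476, 0.248, 8.84 and 9.55 against 1.06, 57.8 and 55.9 CPM and Camp 0.149, 0.36, 2.55 and 2.07 against 0.374, 17.6 and 16.5 CPM. Both encode secondary granule proteins, and both missed the threshold with all libraries and passed it without KO GMP 1, at 3.55 ± 1.03 and 3.72 ± 0.92, where Ngp lost the call without KO GMP 3 (adjusted p = 0.0688) or KO GMP 4 (0.0672). With all libraries Camp passed by DESeq2 (adjusted p = 0.0205), by limma voom (0.0322), with a filter of 1 CPM in 3 libraries (0.0493), with values divided by 4 (0.0403) and with a covariate for numbers 1 and 2 against 3 and 4 (0.0378), and Ngp passed by limma voom (0.018). Fcnb, which encodes a ficolin, measured 0, 0.72, 0.807 and 0.807 CPM in KO CMP and 1.47, 66.5 and 66.7 CPM in KO GMP and rose by 6.23 ± 1.39 (adjusted p = 0.0061). Summed over the 20 genes, KO CMP ranged from 326 to 429 CPM, KO GMP 1 measured 585 CPM and KO GMP 3 and 4 measured 2001 and 2027 CPM. A lineage-negative gate should hold few mature neutrophils, and their part in these values was not tested.

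The NADPH oxidase, the complex that makes superoxide in phagocytes, rose in all 6 listed subunits with and without KO GMP 1 (median log2 change 1.05 and 1.35). With KO GMP 1, 3 of the 6 rose in a fit of the knockout libraries only. Ncf1 measured 107, 116, 204 and 194 CPM in KO CMP and 224, 483 and 478 CPM in KO GMP and rose by 1.35 ± 0.28 (adjusted p = 0.00362). KO GMP 1 was the lowest GMP library for Ncf1 and was above every CMP library. Ncf4 measured 35.9, 40.8, 59.8 and 63.2 against 59.3, 135 and 140 CPM, where KO GMP 1 overlapped KO CMP 3 and 4. Its change was 1.16 ± 0.25 (adjusted p = 0.00468), and the call was lost in the knockout-only fit (adjusted p = 0.0571).

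Of 20 listed monocyte genes, 8 rose with and without KO GMP 1, against 10.7% and 13.4% of all tested genes, and the medians were 0.34 and 0.53. Without KO GMP 3, or without KO GMP 4, 3 rose. Emr1, the symbol in the files for the macrophage receptor F4/80, measured 1.13, 3.1, 2.98 and 2.9 CPM in KO CMP and 5.02, 13.6 and 11.6 CPM in KO GMP and rose by 1.99 ± 0.35 (adjusted p = 0.00143). Itgam, which encodes CD11b, measured 22, 26.9, 29.2 and 28 against 42.8, 97.4 and 91.7 CPM and rose by 1.54 ± 0.30 (adjusted p = 0.00247). Cd14, a co-receptor for lipopolysaccharide, measured 4.01, 8.13, 15 and 16.1 against 22.8, 49.3 and 51 CPM and rose by 1.92 ± 0.44 (adjusted p = 0.00661). The groups did not overlap for these 3 genes, and KO GMP 1 was the lowest of the GMP libraries. Fn1 (fibronectin) measured 2.51, 3.45, 4.26 and 3.23 against 1.91, 17.7 and 16.6 CPM, with KO GMP 1 below all CMP libraries. It passed the threshold with all libraries (1.84 ± 0.47 (adjusted p = 0.0125)) and without KO GMP 1 (2.35 ± 0.18 (adjusted p = 3.42e-06)), but not with all others when KO GMP 3 (adjusted p = 0.0799) or KO GMP 4 (0.0679) was left out.

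The largest rises of the step were eosinophil genes. Of 10 tested genes of that list, 9 rose with and without KO GMP 1, with medians of 6.84 and 7.31, and 8 of the 10 largest rises by the naming rule are genes of eosinophil ribonucleases (Ear1, Ear2, Ear3, Ear6 and Ear7) or granule proteins (Prg2, Prg3 and Epx). The Ear genes are close copies of each other, so the split of reads among them is uncertain. By limma voom with all libraries, Ear6 (adjusted p = 0.131), Ear1 (0.0523) and Ear2 (0.0801) missed the threshold. Ear6 also missed it by limma voom without KO GMP 1 (0.0888). Epx, which encodes eosinophil peroxidase, measured 0.679, 6.47, 4 and 6.21 CPM in KO CMP and 190, 902 and 860 CPM in KO GMP. Its log2 change was 7.22 ± 1.05 (adjusted p = 0.000649) with all libraries and 7.66 ± 1.04 (adjusted p = 0.000127) without KO GMP 1. Prg2, which encodes major basic protein, measured 4.35, 25.1, 11.3 and 20.9 against 366, 2560 and 2560 CPM and rose by 6.89 ± 1.11 (adjusted p = 0.00096). Ear7 measured 0.0408, 0.347, 0.577 and 0.707 against 12, 176 and 172 CPM and rose by 8.09 ± 1.23 (adjusted p = 0.000742). In these genes KO GMP 1 was far above every CMP library and below the other GMP libraries.

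The summed level of the eosinophil list was 26 to 56.4 CPM in KO CMP, 630.3 CPM in KO GMP 1 and 3911 and 3872 CPM in KO GMP 3 and 4. Within numbers 1, 3 and 4 GMP was 24.3, 112 and 82.2 times CMP. The same genes rose in the wild-type step, where the summed level was 49 to 380.0 CPM in WT CMP and 1653 to 7575 CPM in WT GMP. The part of eosinophil-committed cells inside the GMP gate was not tested. The remaining genes among the 10 largest rises were Fcnb and Mogat2, which encodes a monoacylglycerol acyltransferase and measured 0, 0.0496, 0.136 and 0.333 CPM in KO CMP and 1.27, 26.1 and 24.2 CPM in KO GMP.

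Mast cell and basophil genes rose, and KO GMP 1 held several of them at the highest level. Of 14 tested genes, 11 rose with all libraries and 8 without KO GMP 1, with medians of 1.84 and 1.10. The count without KO GMP 1 was 5 when KO GMP 3 or KO GMP 4 was also left out. Mcpt8, a basophil protease, measured 24.1, 19.4, 29.6 and 34.3 CPM in KO CMP and 251, 181 and 176 CPM in KO GMP and rose by 2.92 ± 0.20 (adjusted p = 1.14e-05). Prss34, another basophil protease, measured 1.02, 5.56, 10.7 and 9.46 against 422, 313 and 299 CPM and rose by 5.68 ± 0.62 (adjusted p = 0.000211). Hdc, the histamine-forming enzyme, measured 76.7, 62.6, 67.4 and 66.9 against 274, 258 and 262 CPM and rose by 1.95 ± 0.20 (adjusted p = 0.000183). The 3 GMP libraries were above all CMP libraries, and KO GMP 1 was the highest of them for each gene.

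Cpa3, the carboxypeptidase of mast cell granules, measured 64.3, 50.1, 68.1 and 64.8 CPM in KO CMP and 369, 126 and 115 CPM in KO GMP. Its rise was 1.72 ± 0.31 (adjusted p = 0.00184) with KO GMP 1 and 0.96 ± 0.17 (adjusted p = 0.000668) without it. The mast cell chymase Cma1, named after its values were seen, measured 0.0544, 0.496, 0.21 and 0.374 CPM in KO CMP and 38, 1.64 and 2.29 CPM in KO GMP, so the level in KO GMP 1 was far above that in every other knockout library. Summed over the 15 listed genes, KO CMP held 217 to 233 CPM, KO GMP 1 held 1633 CPM and KO GMP 3 and 4 held 961 and 935 CPM. In WT GMP the sum was 1444 to 1571 CPM. The difference in log2 change between the number sets had a median of 1.47 over the 14 genes, higher in numbers 1 and 2, where the GMP side is KO GMP 1 alone. Tpsab1 was at 0 in all 7 knockout libraries, which allows up to 3 fragments in each, and the part of mast cells or basophils was not tested.

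The transcription factors followed these groups in part. Of 24 listed granulocyte-monocyte factors, 9 rose and 4 fell with all libraries, and 8 rose and 7 fell without KO GMP 1. Over all tested genes, 10.7% were higher and 10.5% lower with all libraries, and 13.4% and 15.7% without KO GMP 1. In the fit without KO GMP 1, 5 rose and 4 fell when KO GMP 3 was also left out, and 5 and 2 when KO GMP 4 was. Cebpe, which is needed for late granulocyte maturation, measured 4.91, 9.8, 11.9 and 13.5 CPM in KO CMP and 47.5, 127 and 133 CPM in KO GMP and rose by 3.35 ± 0.55 (adjusted p = 0.00104). Gfi1, a repressor of the monocyte fate, measured 38.6, 39.9, 51.6 and 48.1 against 121, 234 and 223 CPM and rose by 2.11 ± 0.33 (adjusted p = 0.000888). Myb measured 517, 537, 579 and 556 against 775, 946 and 916 CPM and rose by 0.68 ± 0.11 (adjusted p = 0.00104). Mycn, a listed member that fell, measured 25.5, 17.6, 13.6 and 14.6 against 2.45, 0.505 and 0.464 CPM and fell by 3.97 ± 0.56 (adjusted p = 0.00062). The groups did not overlap for these 4 genes.

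Cebpa, Sfpi1 and Irf8 were named from this list after their values were seen. Cebpa, which encodes C/EBP alpha, measured 190, 150, 225 and 222 CPM in KO CMP and 353, 312 and 312 CPM in KO GMP and rose by 0.73 ± 0.16 (adjusted p = 0.00466), with KO GMP 1 the highest library. Sfpi1, the symbol in the files for the PU.1 gene, measured 141, 140, 227 and 243 against 240, 304 and 326 CPM and rose by 0.62 ± 0.18 (adjusted p = 0.0247). Irf8, a factor for monocytes and dendritic cells, measured 91.5, 152, 456 and 469 CPM in KO CMP and 147, 353 and 347 CPM in KO GMP. Its values followed the library numbers more than the sort, since KO CMP 3 and 4 were above all GMP libraries, and the fitted change was -0.05 ± 0.45 (adjusted p = 0.958).

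Among 22 cytokine receptors, 7 rose and 5 fell with all libraries, and 7 rose and 6 fell without KO GMP 1. The shares over all tested genes were 10.7% higher and 10.5% lower, and 13.4% and 15.7% without KO GMP 1. With all others, 5 rose and 2 fell without KO GMP 3, and 5 and 3 without KO GMP 4. Csf3r, the receptor for G-CSF, measured 150, 142, 145 and 139 CPM in KO CMP and 178, 234 and 218 CPM in KO GMP and rose by 0.54 ± 0.10 (adjusted p = 0.00182). Csf2ra, a subunit of the GM-CSF receptor, measured 46.7, 56.7, 84.1 and 87.2 against 113, 209 and 214 CPM and rose by 1.38 ± 0.25 (adjusted p = 0.00184). Ifngr1, a subunit of the interferon gamma receptor, measured 114, 126, 156 and 157 against 290, 540 and 544 CPM and rose by 1.73 ± 0.23 (adjusted p = 0.000535). KO GMP 1 was the lowest GMP library for all 3 and stayed above every CMP library.

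Genes of stem and multipotent cells fell. Of 24 listed genes, 20 fell with all libraries and 21 without KO GMP 1, with medians of −1.73 and −2.78. Without KO GMP 3, 11 fell, and without KO GMP 4, 12. Meis1, a homeobox factor of stem cells, measured 128, 123, 80 and 80.7 CPM in KO CMP and 40.2, 11.9 and 13.8 CPM in KO GMP and fell by 2.23 ± 0.36 (adjusted p = 0.000949). Hlf, another stem cell factor, measured 104, 104, 68.1 and 66.1 against 32.4, 12.7 and 13.8 CPM and fell by 2.13 ± 0.31 (adjusted p = 0.000649). Rgs1, a regulator of G protein signalling, measured 117, 145, 214 and 239 against 77.7, 54.8 and 48.6 CPM and fell by 1.57 ± 0.25 (adjusted p = 0.000892). No groups overlapped, and KO GMP 1 was the highest GMP library for each. Within numbers 1, 3 and 4 the summed level in GMP was 0.524, 0.343 and 0.326 times that in CMP. The difference in log2 change between the number sets had a median of 0.98 over this list, higher, that is less negative, in numbers 1 and 2. In numbers 1 and 2 the GMP side is KO GMP 1 alone.

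Megakaryocyte genes fell in the same way. Of 21 tested genes, 15 fell with all libraries and 19 without KO GMP 1, with medians of −1.88 and −3.45, and 9 fell without KO GMP 3. Plek, the platelet protein pleckstrin, measured 223, 241, 171 and 157 CPM in KO CMP and 104, 37.2 and 37 CPM in KO GMP and fell by 1.74 ± 0.30 (adjusted p = 0.00139). Itgb3, the integrin chain of the platelet fibrinogen receptor, measured 55.3, 50.5, 40.9 and 36.4 against 24.8, 17 and 15.1 CPM and fell by 1.27 ± 0.19 (adjusted p = 0.000649). Slc14a1, a urea transporter, measured 93.3, 66.1, 58.4 and 56.7 against 23.5, 5.4 and 3.86 CPM and fell by 2.65 ± 0.48 (adjusted p = 0.00171). Treml1, a receptor of platelet granules, measured 8.34, 6.66, 6.97 and 9.11 against 1.45, 0.537 and 0.174 CPM and fell by 3.43 ± 0.55 (adjusted p = 0.000983). The order of libraries was that of the stem cell genes, with KO GMP 1 between the groups. A fit with library number as a replicate block had 18 genes of this list lower and 1 higher.

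Tbxa2r, the thromboxane receptor, had the largest fall among the genes of the naming rule when KO GMP 1 was left out. It measured 16.5, 12.7, 9.04 and 10.4 CPM in KO CMP and 2.81, 0.0421 and 0.058 CPM in KO GMP. Its log2 change was -3.65 ± 0.98 (adjusted p = 0.0168) with all libraries and -7.91 ± 0.54 (adjusted p = 2.06e-06) without KO GMP 1. The levels in KO GMP 3 and 4 were under 0.1 CPM, and KO GMP 1 lay between them and KO CMP.

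Of 23 tested erythroid genes, 16 fell and 1 rose with and without KO GMP 1, with medians of −1.83 and −2.43, and 9 fell without KO GMP 3. Car2, a carbonic anhydrase, measured 354, 265, 194 and 199 CPM in KO CMP and 83.7, 24.9 and 27.4 CPM in KO GMP and fell by 2.48 ± 0.39 (adjusted p = 0.000888). Car1, a further carbonic anhydrase of red cells, measured 42.2, 8.19, 36 and 39.2 against 4.48, 0.432 and 0.247 CPM and fell by 4.19 ± 0.91 (adjusted p = 0.00502). Hemgn (hemogen) measured 29, 22.2, 16.1 and 16.3 against 6.2, 1.99 and 2.29 CPM and fell by 2.58 ± 0.39 (adjusted p = 0.000719). The member that rose was Tfrc, the transferrin receptor that dividing cells of many types use, at 137, 155, 140 and 134 against 217, 249 and 243 CPM (0.74 ± 0.13 (adjusted p = 0.00125)). Add2 was at 0 in all 3 KO GMP libraries against a mean of 1.42 CPM in KO CMP. This is at least 29-fold lower at a floor of 3 fragments over the group, if 1 fragment is about 4 units.

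Of 17 factors that act in erythroid and megakaryocytic cells, 9 fell with all libraries and 15 fell and 2 rose without KO GMP 1, with medians of −0.85 and −1.34. Mef2c measured 139, 145, 126 and 116 CPM in KO CMP and 68.2, 59.9 and 56.9 CPM in KO GMP and fell by 1.09 ± 0.10 (adjusted p = 5.52e-05). Tal1, a partner of GATA1, measured 112, 97.3, 95 and 91.1 against 67.5, 38.9 and 38.3 CPM and fell by 1.04 ± 0.16 (adjusted p = 0.00093). Lmo2, the bridge between Tal1 and GATA factors, measured 599, 565, 563 and 579 against 361, 275 and 293 CPM and fell by 0.89 ± 0.14 (adjusted p = 0.000958). The groups did not overlap for these 3.

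Gata2, which acts in stem cells, megakaryocytes and mast cells, measured 318, 243, 212 and 207 CPM in KO CMP and 268, 69.6 and 70.5 CPM in KO GMP, so KO GMP 1 was within the range of KO CMP and KO GMP 3 and 4 were below it. The fitted change was -0.85 ± 0.38 (adjusted p = 0.129) with all libraries and -1.81 ± 0.21 (adjusted p = 4.12e-05) without KO GMP 1. In KO GMP 1 the mast cell and basophil sum was also the highest of the knockout libraries, and whether the same cells carried both was not tested. Gata1, named after its values were seen, measured 39.4, 27.3, 25.4 and 27.4 against 21.7, 7.29 and 7.05 CPM and fell by 1.31 ± 0.35 (adjusted p = 0.0149).

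Dendritic cell genes were where leaving out KO GMP 1 changed the count most. Of 15 listed genes, 2 fell with all libraries and 12 without KO GMP 1, with medians of −0.97 and −2.55. With all libraries but KO CMP 1, 4 fell, and 6 fell by DESeq2 and 14 by limma voom. The 2 were Flt3 and Tcf4. Flt3, the receptor for the Flt3 ligand, measured 195, 196, 341 and 318 CPM in KO CMP and 81, 31 and 30.8 CPM in KO GMP and fell by 2.46 ± 0.36 (adjusted p = 0.000648). Tcf4, a factor for plasmacytoid dendritic cells, measured 91.6, 95.7, 91.5 and 83.7 against 62.7, 45.3 and 42.4 CPM and fell by 0.85 ± 0.13 (adjusted p = 0.000665). For both, KO GMP 1 was below every CMP library and above KO GMP 3 and 4.

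H2-Ab1, a chain of MHC class II, measured 78.8, 156, 153 and 172 CPM in KO CMP and 134, 37.9 and 40.4 CPM in KO GMP, with KO GMP 1 inside the CMP range. Its change was -0.99 ± 0.38 (adjusted p = 0.0796) with all libraries and -1.84 ± 0.27 (adjusted p = 0.000193) without KO GMP 1. Cd74, the invariant chain that escorts class II and named here after its values were seen, measured 101, 288, 220 and 268 against 283, 36.2 and 35.9 CPM, with changes of -0.89 ± 0.58 (adjusted p = 0.315) and -2.60 ± 0.34 (adjusted p = 9.47e-05). Summed over the 15 genes, KO CMP held 655, 1129, 1243 and 1337 CPM, KO GMP 1 held 916 CPM, and KO GMP 3 and 4 held 335 and 350 CPM. The ratio of GMP to CMP was 1.40 in number 1 and 0.269 and 0.262 in numbers 3 and 4. The difference in log2 change between the number sets had a median of 2.84 over the 15 genes, higher in numbers 1 and 2, where the GMP side is KO GMP 1 alone. The part of dendritic cells in KO GMP 1 was not tested.

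Of 20 lymphoid genes, 7 fell with all libraries and 8 without KO GMP 1. With library number as a replicate block, 5 fell without KO GMP 1. With all libraries 13 fell by DESeq2, 15 by limma voom and 3 in a fit of the knockout libraries only, and 11 fell without KO CMP 1. Without KO GMP 1, 15 fell by limma voom, 3 in the knockout-only fit, 5 when KO CMP 2 or KO GMP 4 was also left out and 3 when KO GMP 3 was. Dntt, the terminal transferase of early lymphoid cells, measured 73.4, 65.4, 168 and 179 CPM in KO CMP and 3.61, 0.99 and 0.943 CPM in KO GMP and fell by 6.04 ± 0.83 (adjusted p = 0.000567). Il7r, the interleukin 7 receptor, measured 1.97, 9.11, 4.75 and 4.96 against 0.337, 0.126 and 0.697 CPM and fell by 3.76 ± 0.64 (adjusted p = 0.00126). KO GMP 1 was at the level of the other GMP libraries for Il7r and within 4-fold of them for Dntt. Summed over the list, KO CMP 2 held 673 CPM and the other KO CMP libraries 155 to 266 CPM, against 146, 78.6 and 71.7 CPM in KO GMP, and Pax5 and Cd3e were at 0 in KO GMP.

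**Figure D4:**
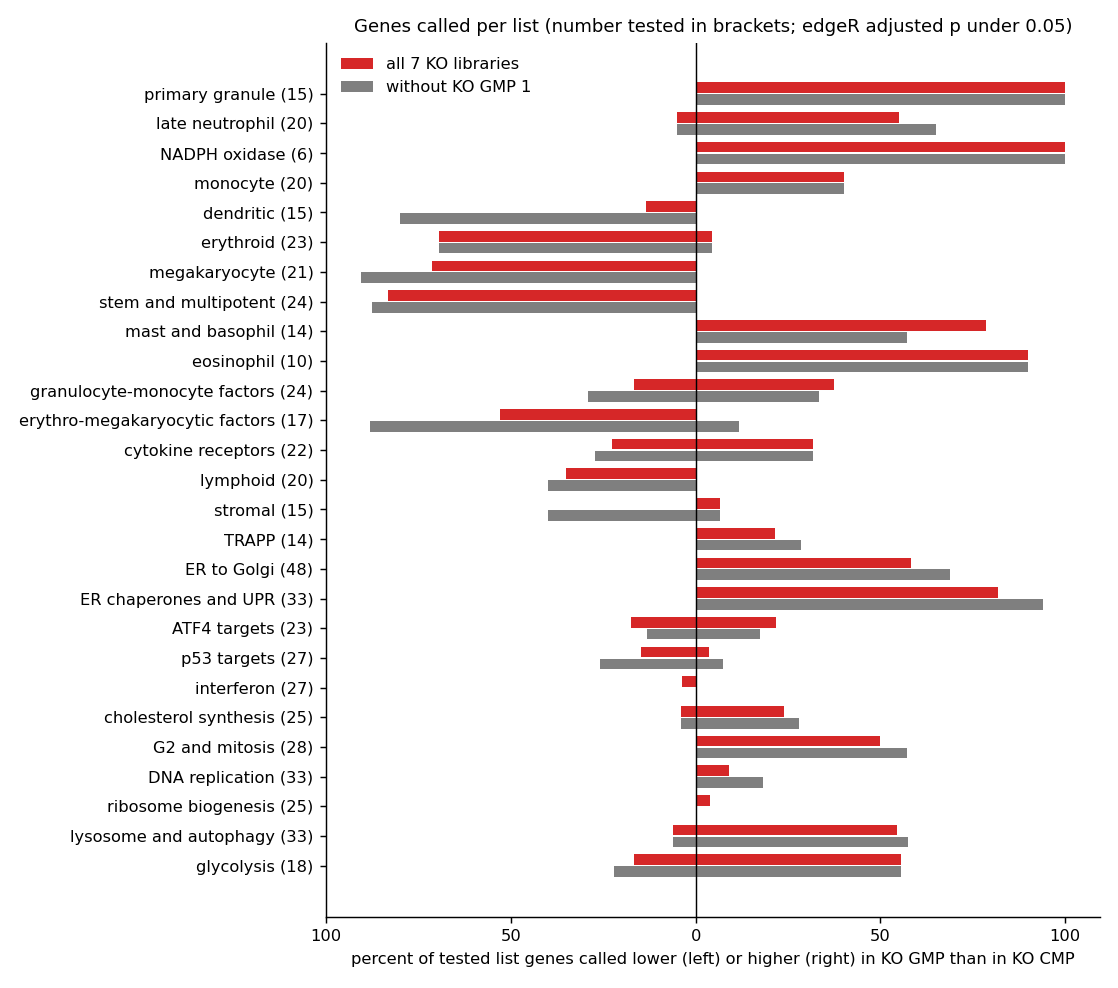
Percent of the tested genes of 27 gene lists called lower (to the left) or higher (to the right) over the knockout step, with all 7 knockout libraries in red and without KO GMP 1 in grey. Primary granule and NADPH oxidase genes reach 100% higher either way, and the dendritic list goes from 2 to 12 of 15 genes lower when KO GMP 1 is left out.

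Genes of the secretory route, in which Trappc1 acts, were described in 3 lists. Of 14 tested TRAPP subunits, 3 rose with all libraries and 4 without KO GMP 1, the fourth being Trappc1, against 10.7% and 13.4% of all tested genes. D030016E14Rik, the symbol in the files for Trappc11, measured 56, 61.3, 54.3 and 54.2 CPM in KO CMP and 72.9, 76.6 and 79.8 CPM in KO GMP and rose by 0.44 ± 0.09 (adjusted p = 0.0036). Trappc10 measured 68.4, 73.5, 61.4 and 55.1 against 104, 113 and 108 CPM and rose by 0.75 ± 0.17 (adjusted p = 0.00609). Trappc2l measured 14.7, 14.7, 20.6 and 21.7 against 19, 28.7 and 30.9 CPM, where KO GMP 1 lay inside the CMP range. Its change was 0.55 ± 0.18 (adjusted p = 0.0424), and the call was lost without KO CMP 1 (adjusted p = 0.109), KO CMP 2 (0.102), KO GMP 3 (0.159) or KO GMP 4 (0.207). With library number as a replicate block and without KO GMP 1, 6 TRAPP genes rose.

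Of 48 genes of ER to Golgi transport, 28 rose with all libraries and 33 without KO GMP 1, with medians of 0.38 and 0.44, and 15 and 14 rose without KO GMP 3 and without KO GMP 4. With KO GMP 1 left out, 18 and 19 rose when KO GMP 3 or KO GMP 4 was also left out, and with all libraries 17 rose in a fit of the knockout libraries only. Surf4, a cargo receptor, measured 234, 238, 259 and 254 CPM in KO CMP and 405, 495 and 492 CPM in KO GMP and rose by 0.91 ± 0.12 (adjusted p = 0.000551). Kdelr2, which returns ER residents from the Golgi, measured 72.9, 61.9, 70.4 and 69.5 against 114, 170 and 168 CPM and rose by 1.13 ± 0.17 (adjusted p = 0.000649). Tmed10, of the p24 cargo receptors, measured 289, 290, 322 and 309 against 389, 467 and 456 CPM and rose by 0.53 ± 0.08 (adjusted p = 0.000737). The spread within each group was small beside the step for these genes, and no groups overlapped. They were named by smallest p within the list, so this follows in part from the choice.

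ER chaperones and genes of the unfolded protein response rose in 27 of 33 tested genes with all libraries and in 31 without KO GMP 1, with medians of 0.70 and 0.86. Calr (calreticulin) measured 1650, 1650, 2120 and 2120 CPM in KO CMP and 3150, 3950 and 3920 CPM in KO GMP and rose by 0.96 ± 0.13 (adjusted p = 0.000514). P4hb, a protein disulfide isomerase, measured 783, 768, 894 and 909 against 1520, 2020 and 2010 CPM and rose by 1.14 ± 0.15 (adjusted p = 0.000535). Xbp1, a transcription factor of the response, measured 95.3, 115, 109 and 108 against 182, 235 and 240 CPM and rose by 1.04 ± 0.16 (adjusted p = 0.000719). Ssr1, a subunit of the translocon-associated complex, measured 384, 365, 375 and 379 against 536, 642 and 654 CPM and rose by 0.70 ± 0.09 (adjusted p = 0.000535). KO GMP 1 was the lowest GMP library for all 4 and above every CMP library. The wild-type step had 28 of these 33 genes higher and 28 of the 48 transport genes, so such rises were not called in the knockout alone.

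Among targets of the stress factors ATF4 and p53, some genes were called in each direction. Of 23 ATF4 targets, 5 rose and 4 fell with all libraries, and 4 and 3 without KO GMP 1, where 21.2% and 29.1% of all tested genes were called in either direction. The ATF4 count without KO GMP 1 was near that share. With all others, 2 rose and 1 fell without KO GMP 3 or without KO GMP 4, 3 rose and 2 fell without KO CMP 3 or without KO CMP 4, and 3 and 4 without KO CMP 1. Ppp1r15a, which encodes the phosphatase subunit GADD34, measured 169, 164, 197 and 206 CPM in KO CMP and 91.8, 91.9 and 95.1 CPM in KO GMP and fell by 0.98 ± 0.15 (adjusted p = 0.0007). Slc7a11, the cystine transporter, measured 0.924, 0.372, 0.367 and 0.216 against 2.17, 2.59 and 3.35 CPM and rose by 2.53 ± 0.60 (adjusted p = 0.00793). Of 27 p53 targets, 1 rose and 4 fell with all libraries, and 2 rose and 7 fell without KO GMP 1. Both p53 counts were near the shares over all tested genes. In the fit with library number as a replicate block, 2 p53 targets rose and 6 fell with all libraries. Sesn1 (sestrin 1) measured 59.2, 54.7, 55.2 and 61.2 CPM in KO CMP and 37, 27.1 and 29.5 CPM in KO GMP and fell by 0.88 ± 0.14 (adjusted p = 0.000983), and Bbc3, which encodes PUMA, measured 23.7, 18.2, 24 and 24.2 against 14.5, 9.09 and 10.3 CPM and fell by 1.0 ± 0.18 (adjusted p = 0.00167).

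Calls among interferon response genes depended on whether library number entered the fit. Of 27 genes, 1 (Gbp2) fell with all libraries and 0 were called without KO GMP 1 by edgeR, where 1 had an unadjusted p under 0.05, DESeq2 called 1 and limma voom called 12 lower. With library number as a replicate block, 19 fell with all libraries and 20 without KO GMP 1. In numbers 3 and 4 alone, 22 fell. Irf7, named after its values were seen, measured 18.7, 23.2, 78.8 and 85.5 CPM in KO CMP and 10.8, 24.6 and 27.6 CPM in KO GMP, so that each GMP library was below the CMP library of its number while KO CMP 1 and 2 were below KO GMP 3 and 4. Ifi44 measured 9.74, 12.4, 25.1 and 27.5 against 2.73, 7.09 and 5.78 CPM, with a change of -1.85 ± 0.76 (adjusted p = 0.103) without the block and −2.16 (adjusted p = 0.00117) with it. Ddx58, which encodes the RNA sensor RIG-I, measured 47.1, 43.1, 53 and 49.9 against 26.4, 31.3 and 32.6 CPM, with a change of -0.68 ± 0.24 (adjusted p = 0.0593) without the block and −0.79 (adjusted p = 0.00283) with it. Within numbers 1, 3 and 4 the summed level in GMP was 0.748, 0.609 and 0.603 times that in CMP.

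**Figure D5:**
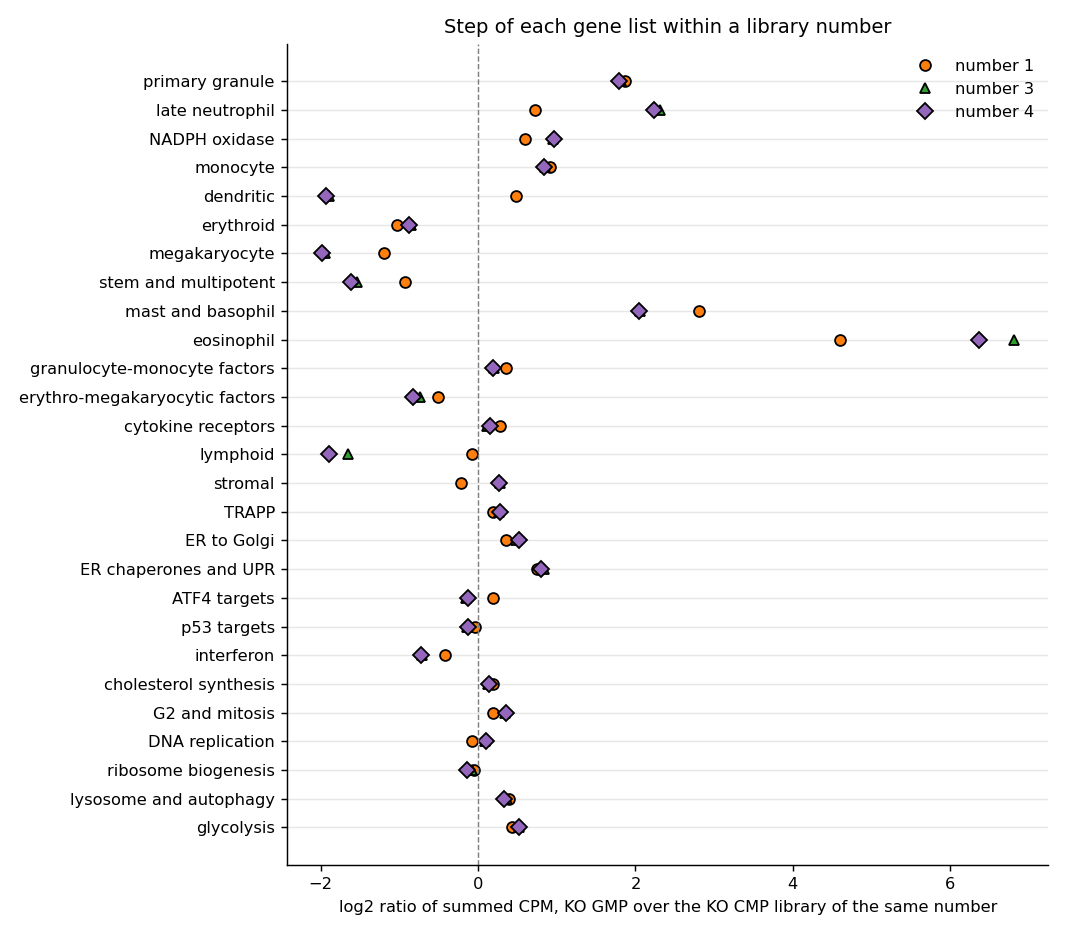
Log2 ratio of the summed CPM of each gene list, GMP over CMP, within library numbers 1 (circle), 3 (triangle) and 4 (diamond) of the knockout. Number 1 lies on the other side of 0 from numbers 3 and 4 for the dendritic (ratios of 1.40 against 0.269 and 0.262), stromal (0.86 against 1.21 and 1.2), ATF4 target (1.14 against 0.899 and 0.917) and DNA replication lists (0.948 against 1.06 and 1.07), and above them for mast and basophil genes (7.02 against 4.18 and 4.11). Vcam1 makes up much of the stromal sums of KO GMP 3 and 4. In numbers 3 and 4, 2 of the 15 stromal genes rose and 8 fell.

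Among cell cycle genes, 14 of 28 of G2 and mitosis rose with all libraries and 16 without KO GMP 1, and 8 rose when KO GMP 3 or KO GMP 4 was left out. The 16 became 5 when either of these was left out as well as KO GMP 1, and with all libraries 24 rose by limma voom. Plk1, a mitotic kinase, measured 74.3, 66.1, 69.7 and 67.7 CPM in KO CMP and 110, 103 and 102 CPM in KO GMP and rose by 0.60 ± 0.11 (adjusted p = 0.0018). Of 33 DNA replication genes, 3 rose with all libraries and 6 without KO GMP 1, against 10.7% and 13.4% of all tested genes, and the 6 became 3 when KO GMP 3 or KO GMP 4 was also left out. Cdc45, a helicase subunit, measured 72.1, 66.6, 74.1 and 71.1 against 97.9, 123 and 122 CPM and rose by 0.69 ± 0.08 (adjusted p = 0.000285). Rrm2, a subunit of ribonucleotide reductase, measured 152, 153, 146 and 144 against 212, 314 and 310 CPM and rose by 0.91 ± 0.13 (adjusted p = 0.000635). KO GMP 1 was the highest GMP library for Plk1 and the lowest for the replication genes. For the wild-type step the counts were 22 of 28 and 15 of 33.

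Over all tested genes, 10.7% were higher and 10.5% lower with all libraries, and 13.4% and 15.7% without KO GMP 1. Of 18 glycolysis genes, 10 rose and 3 fell with all libraries. Gpi1 measured 824, 836, 957 and 980 CPM in KO CMP and 1430, 1860 and 1920 CPM in KO GMP and rose by 0.95 ± 0.13 (adjusted p = 0.000593), and Pgam1 measured 385, 388, 501 and 494 against 696, 791 and 778 CPM and rose by 0.77 ± 0.10 (adjusted p = 0.000514). Of 33 lysosome and autophagy genes, 18 rose and 2 fell with all libraries, 19 and 2 without KO GMP 1, and 10 and 1 when KO GMP 3 or KO GMP 4 was left out. Gusb, which encodes lysosomal beta-glucuronidase, measured 183, 194, 181 and 189 CPM in KO CMP and 261, 257 and 263 CPM in KO GMP and rose by 0.48 ± 0.06 (adjusted p = 0.000535). Gabarapl1, an autophagosome protein, measured 150, 134, 140 and 141 against 100, 81.4 and 76.5 CPM and fell by 0.72 ± 0.10 (adjusted p = 0.000514). Of 25 cholesterol synthesis genes, 6 rose and 1 fell with all libraries, and 7 and 1 without KO GMP 1. With all others, 3 rose without KO CMP 1, 4 without KO CMP 2, 2 without KO GMP 3 and 1 without KO GMP 4, and without KO GMP 1, 3 rose when KO GMP 4 was also left out. Sc5d measured 11.4, 11.3, 12.1 and 12 against 15, 21.8 and 21.8 CPM and rose by 0.74 ± 0.15 (adjusted p = 0.00311). Of 25 ribosome biogenesis genes, 1 rose, Wdr12 (0.27 ± 0.09 (adjusted p = 0.0442)), and the call was lost without KO CMP 1, 2 or 3 or any KO GMP library (adjusted p = 0.06 to 0.103). That count was below the share over all tested genes. With library number as a replicate block, 3 ribosome biogenesis genes rose and 2 fell.

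Stromal genes marked the libraries of numbers 1 and 2. Of 15 listed genes, 1 rose with all libraries, and 1 rose and 6 fell without KO GMP 1. The member that rose was Vcam1, an adhesion molecule, at 8.14, 31.9, 3.08 and 3.94 CPM in KO CMP and 33, 123 and 125 CPM in KO GMP (3.0 ± 1.01 (adjusted p = 0.0472)), a call lost when KO CMP 1, KO CMP 3, KO CMP 4, KO GMP 3 or KO GMP 4 was left out (adjusted p = 0.1 to 0.127). Sparc, a matrix protein, measured 12.5, 18.1, 0.692 and 1.08 against 5.84, 0.0526 and 0.0726 CPM. Its change was -2.03 ± 1.33 (adjusted p = 0.321) with all libraries and -7.0 ± 1.47 (adjusted p = 0.00274) without KO GMP 1. The summed level of the list was 375 and 434 CPM in KO CMP 1 and 2, 212 and 210 CPM in KO CMP 3 and 4, 323 CPM in KO GMP 1 and 257 and 252 CPM in KO GMP 3 and 4. Vcam1 alone, at 123 and 125 CPM, made up much of the sums in KO GMP 3 and 4. In numbers 3 and 4 alone, 2 genes of the list rose and 8 fell, and without KO CMP 1 and 2 and KO GMP 1, 1 rose and 4 fell, Sparc among them at −3.81 (adjusted p = 0.00407). The 6 falls called without KO GMP 1 became 2 when KO GMP 3 or KO GMP 4 was also left out and 10 when KO CMP 4 was.

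Some genes left KO GMP 1 beyond the CMP libraries in the direction away from KO GMP 3 and 4. Slc45a3, Slc7a8 and Anpep were named by a rule that picks such genes, so their pattern follows from the choice. Of the 2378 genes called lower without KO GMP 1, 14.3% had it at or past the KO CMP mean. Slc45a3, a membrane transporter, measured 14.3, 10.6, 15.2 and 16.1 CPM in KO CMP and 34.5, 9.11 and 7.4 CPM in KO GMP, so that KO GMP 1 was the highest library and KO GMP 3 and 4 the lowest. Its fitted change was 0.28 ± 0.41 (adjusted p = 0.699) with all libraries and -0.77 ± 0.24 (adjusted p = 0.029) without KO GMP 1, and without KO GMP 1 the call was lost when KO CMP 1, 3 or 4 or KO GMP 3 or 4 was also left out (adjusted p = 0.0501 to 0.229). Slc7a8, an amino acid transporter, measured 53.3, 51.6, 30.4 and 30.2 against 89.6, 26.1 and 23.5 CPM, with changes of 0.17 ± 0.37 (adjusted p = 0.808) and -0.74 ± 0.22 (adjusted p = 0.0206). Its call was lost when KO GMP 3 (adjusted p = 0.0839) or KO GMP 4 (0.159) was left out as well. Anpep, the aminopeptidase CD13, measured 2.68, 8.01, 4.54 and 5.61 against 11.7, 1.58 and 1.48 CPM, with changes of -0.09 ± 0.61 (adjusted p = 0.944) and -1.77 ± 0.45 (adjusted p = 0.00957), and lost the call likewise without KO GMP 3 (0.0719) or KO GMP 4 (0.0864).

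The wild-type step gave the reference for what belongs to the knockout. From WT CMP to WT GMP, 1721 genes were higher (11.3%) and 2151 lower (14.2%), 25.5% in all. Of the genes called in the knockout without KO GMP 1, 1286 of the higher (63.2% of the knockout set and 74.7% of the wild-type set) and 1663 of the lower (69.9% and 77.3%) were called in the same direction in the wild-type. With KO GMP 1 the shared genes were 1162 higher (71.2% and 67.5%) and 1336 lower (83.8% and 62.1%). No gene was called in opposite directions. Primary granule genes were higher in 14 of 15, stem cell genes lower in 21 of 24, megakaryocyte genes lower in 17 of 21, dendritic genes lower in 13 of 15 and eosinophil genes higher in 9 of 10 in the wild-type step.

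The difference between the steps was tested for each gene, and 0 genes passed the threshold by edgeR, with or without KO GMP 1 (0% of those tested). With all libraries 451 genes had an unadjusted p under 0.05 (322 with the higher change in the knockout and 129 with the lower) and the smallest adjusted p was 0.291. Without KO GMP 1 there were 842 such genes and the smallest adjusted p was 0.764. DESeq2 called 3 genes with all libraries and 4 without KO GMP 1, and limma voom called 0 either way. A p that misses the threshold does not show that the steps were alike: the median approximate standard error of the difference was 0.264 on the log2 scale.

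The naming rule kept genes with a mean of at least 5 CPM in at least 1 group and left out clones and predicted genes. Among the genes it kept, those with the smallest p and the higher change in the knockout included Abca13 and Olr1. Abca13 is a lipid transporter, and Olr1 is a receptor for oxidised lipoprotein. Abca13 measured 0.394, 1.18, 1.01 and 0.915 CPM in KO CMP and 11.5, 56.8 and 49.3 CPM in KO GMP, against 29, 29.6, 3.22 and 1.71 CPM in WT CMP and 41.2, 39.6, 60 and 43.3 CPM in WT GMP. Its levels in KO GMP 3 and 4 were within the range of WT GMP, and the KO CMP libraries were below every WT CMP library. The difference of the steps was 3.94 ± 1.09 (adjusted p = 1) with all libraries and 4.37 ± 1.06 (adjusted p = 0.764) without KO GMP 1. Olr1 measured 0.163, 0.484, 0.828 and 0.582 against 7.14, 30.8 and 28.5 CPM in the knockout and 17.3, 15.6, 1.36 and 1.33 and 25.6, 26.7, 29.5 and 26.9 CPM in the wild-type, with a difference of 3.79 ± 1.09 (adjusted p = 1). Mogat2 and Clec4b2, by that rule also among the 5 genes of smallest p with the higher change in the knockout, had differences of 5.20 ± 1.48 and 5.57 ± 1.62. Among genes with the lower change in the knockout, Prkag2, a subunit of AMP kinase, measured 45.1, 42.6, 38.5 and 39 against 18.2, 22.1 and 19.2 CPM in the knockout and 36.3, 34.1, 37.6 and 36.5 and 28.2, 31.2, 23.5 and 23.2 CPM in the wild-type, with a difference of -0.61 ± 0.15 (adjusted p = 1).

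Without KO GMP 1, Eya2 and Tbxa2r led the lower side by the naming rule. Eya2, a transcriptional co-activator and phosphatase, measured 18.9, 15.8, 12.5 and 11.4 CPM in KO CMP and 5.58, 0.653 and 0.697 CPM in KO GMP, against 9.24, 10.4, 15.2 and 13.7 CPM in WT CMP and 1.8, 1.94, 1.68 and 1.36 CPM in WT GMP. Its difference of steps was -1.60 ± 0.33 (adjusted p = 0.764) by edgeR and −1.62 (adjusted p = 0.0484) by DESeq2. The difference for Gata2 was -0.95 ± 0.25, and its WT levels were 146, 131, 200 and 203 CPM in CMP and 99.6, 96.4, 92.8 and 88.1 CPM in GMP. Neither gene passed the threshold by edgeR.

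Within numbers 3 and 4, where 2 libraries stand in each group, 2 genes passed (0.0132% of those tested, and 0.00659% in each direction), and 1 of them, Chi3l3, has a known product, a chitinase-like protein of neutrophils and macrophages. Chi3l3 measured 0.217, 0.397, 4.95 and 4.42 CPM in KO CMP and 0.848, 153 and 156 CPM in KO GMP, and 12.1, 11.5, 2.38 and 2.01 CPM in WT CMP and 40.8, 39.6, 188 and 196 CPM in WT GMP. In numbers 3 and 4 its rise was smaller in the knockout than in the wild-type by 1.40 ± 0.17 (adjusted p = 0.0152) on the log2 scale. In the fits without number sets the difference had the other sign and did not pass the threshold. There its rise was larger in the knockout by 1.28 ± 1.65 with all libraries and by 1.86 ± 1.3 without KO GMP 1. Tor1aip1, a nuclear membrane protein, passed when KO CMP 1 was left out (1.39, adjusted p = 0.000288, and 1.45, adjusted p = 0.000287, without KO GMP 1 as well), and in a fit of numbers 3 and 4 only (1.41, adjusted p = 0.0234). It measured 81.5, 32, 36.9 and 30.9 CPM in KO CMP and 95.3, 108 and 110 CPM in KO GMP, with KO CMP 1 far above the other CMP libraries, and 93.9, 100, 95.2 and 87.6 CPM in WT CMP and 112, 117, 109 and 113 CPM in WT GMP. Both genes were named after their values were seen.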

How the data were processed

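RNA-seq of sorted CMP and GMP used the SMARTER mRNA-Seq Library Prep Kit, per the labels' protocols. HISAT and mm10 are named in the submitters' processing notes, and the counter and its annotation are not given in the sources used. For each gene symbol the authors deposited an expected count (estimated count), unscaled between libraries. Of 40915 values from 1 to 40, 38% were multiples of 4, which does not settle the unit of a count. It was assumed that 1 fragment is about 4 units, which gives library totals of 15.3 to 30.1 M fragments. Under this assumption, genes under 1 CPM rest on few fragments. Of 23337 symbols, 25 had turned into dates, and 0 columns were duplicates.

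Counts were rounded and tested in R 4.3.3 with edgeR 4.0.16: genes kept by filterByExpr (15181), TMM scaling, and a single quasi-likelihood fit of 15 libraries with 1 coefficient per group (11 residual degrees of freedom, or 10 without KO GMP 1). Contrasts were GMP minus CMP in the knockout and in the wild-type, and the difference between these. A fit split by numbers 1 and 2 against 3 and 4 left 7. P-values are two-sided, adjusted by Benjamini-Hochberg over the whole table, and 0.05 was the threshold. The fits were tested on simulated data with known changes. Alternatives used DESeq2 1.42.0, limma 3.58.1, other filters and scalings, a replicate block, and single libraries left out.

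Deviations of same-numbered CMP and GMP libraries from their group means correlated across genes, each at over 0.1. The values were 0.52, 0.44 and 0.51 in the knockout (numbers 1, 3 and 4) and 0.24, 0.29, 0.26 and 0.37 in the wild-type (numbers 1 to 4). Library number therefore entered as a replicate block in alternative fits, and the main fits had no block. Different numbers of the same set (1 and 2, or 3 and 4) also correlated, at 0.4 to 0.47 in the knockout and 0.19 to 0.27 in the wild-type, and numbers of different sets at −0.54 to −0.19. Deviations from a group mean cancel within the group, so the negative values follow in part from the centring. Same numbers and different numbers of the same set gave overlapping ranges, so single numbers were not clearly separated within a set. The labels do not state a pairing.

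Genes were described by 29 lists of 605 symbols, of which 602 were found, some through RefSeq synonyms. Named genes are Trappc1, the sort gate genes, the 10 largest rises and falls called in both fits without overlap and with at least 5 CPM, up to 4 members per list by smallest p, 5 per direction for the difference between steps, and 5 per direction whose KO GMP 1 lay farthest toward CMP. The libraries, lists and rule were chosen with earlier results of these data known. Clones and predicted genes were left out, and named genes not described here are not reported. Promoters and their positions are from RefSeq, other gene positions from GENCODE on GRCm38.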

Additional observations from a re-analysis of the deposited data

Results flagged for a closer look

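Among 155 groups of 4 knockout CMP libraries, 1 per named gene, 12 held a library whose gap to its neighbour was too wide a share of the range by Dixon's test, and chance alone flags about 1 in 20 groups. All 12 were KO CMP 1 or KO CMP 2, and the cause was not tested. KO CMP 2 measured 346 CPM for Ptprc (CD45) against 204 to 221 CPM in the other KO CMP libraries. It measured 8.19 CPM for Car1 against 36 to 42.2 CPM, 0.571 CPM for Add2 against 1.55 to 1.84 CPM, and 11.2 CPM for the natural killer gene Ncr1 against 0.924 to 1.28 CPM. Its Bbc3 was 18.2 CPM against 23.7 to 24.2 CPM, and its Uty 18.7 CPM against 14 to 14.4 CPM. KO CMP 1 measured 0 CPM for Fcnb against 0.72 to 0.807 CPM, 49 CPM for Aqp1 against 25.4 to 28.3 CPM, and 1.13 CPM for Emr1 against 2.9 to 3.1 CPM. It measured 9.85 CPM for Id2 against 27.8 to 28.3 CPM, 78.8 CPM for H2-Ab1 against 153 to 172 CPM, and 27.9 CPM for Ddit4 against 35.3 to 35.6 CPM.

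In numbers 3 and 4, the step differed between knockout and wild-type for Chi3l3 (edgeR adjusted p = 0.0152) and for the predicted gene Gm8801 (edgeR adjusted p = 0.0115), which was at 0 in WT GMP 3 and 4.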

How the results depend on the processing

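With library number as a replicate block, the knockout step had 2221 higher and 2125 lower genes, and 2681 and 2743 without KO GMP 1. Numbers 3 and 4 had 3409 and 3668, the wild-type step 2460 and 2731, and the difference between steps 0 and 0, with or without KO GMP 1. Besides S100a9, the list counts given above and interferon genes (Ddx58, Ifi44 and Mx2 in both fits, Gbp2 without KO GMP 1), the block changed the calls of 5 named genes, all without KO GMP 1: Chac1, Cxcl12 and Xist were lost, and Wdr12 and Uty gained. It also left 1 rather than 2 erythro-megakaryocytic factors higher without KO GMP 1.

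Limma voom with sample weights gave 3429 higher and 3909 lower genes for the knockout step and 3418 and 3803 without KO GMP 1. A fit of the knockout libraries only gave 994 and 843. DESeq2, RLE factors, other filters, values divided by 4 and number set as a covariate left both counts within 1.5 times.

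Leaving out each library in turn gave 981 to 2035 higher and 707 to 2378 lower genes for the knockout step, lowest without KO GMP 3. Without KO GMP 1 the ranges were 1148 to 2126 and 1251 to 2468, lowest without KO GMP 4 (1148 and 1251), with 1178 and 1376 without KO GMP 3. A group then left with 1 GMP library is assumed to vary like the others. In the wild-type step 944 to 1754 genes were higher, with 944 without WT CMP 3, 1117 without WT GMP 3 and 1075 without WT GMP 4. For the difference between steps, 0 or 1 gene was called higher and 0 lower with KO GMP 1, and 0 or 1 either way without it: Tor1aip1 without KO CMP 1, and Fam55c (−1.39, edgeR adjusted p = 0.0178) without KO GMP 1 and 3. DESeq2 called 3 higher (among them Dpep1 and Mmp27), and without KO GMP 1 2 higher (Ambp and Mmp27) and 2 lower (Chrm4 and Eya2). A fit of numbers 3 and 4 only called 1 higher (Tor1aip1) and 1 lower (Chi3l3).

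The log2 change of Slc45a3 reversed from 0.28 to −0.75 by limma voom and −0.92 without the 3 libraries that stood apart, and ranged from −0.77 (without KO GMP 1) to 0.64 with single libraries left out. Slc7a8 ranged from −0.74 (without KO GMP 1) to 0.5. Xist, at −8.2 without KO GMP 1, was 0.19 by limma voom. Over genes that rose in WT, the KO CMP position moved from −0.41 to −0.15 with a log2 change of at least 2, to −1.05 with WT numbers 1 and 2 as reference and to −0.12 with WT numbers 3 and 4. KO GMP 3 and 4 moved from 1.06 to 1.02, 1.26 and 0.96 under the same 3 choices, and KO GMP 1 from 0.33 to 0.1 with WT numbers 1 and 2. Over genes that fell, KO CMP moved from −0.12 to −0.25 with WT numbers 1 and 2. The cause of these changes was not tested. If 1 fragment is about 4 units, a gene under 1 CPM rests on at most about 15.3 to 30.1 fragments. Only 3 KO GMP libraries, of which 1 stands apart, were measured.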
